A study of Mus musculus with 26 samples.

Results

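The glutathione, thioredoxin and antioxidant genes of bone marrow macrophages were followed through the first days of osteoclast differentiation, with and without cyclooxygenase 2. They were chosen by gene symbol alone, as the glutathione transferases, glutathione peroxidases, peroxiredoxins, thioredoxins, glutaredoxins, methionine sulfoxide reductases and selenoproteins, with catalase, the superoxide dismutases Sod1 and Sod3, the metallothioneins, subunits of the NADPH oxidase, and NRF2 with its regulators and classical targets. Gpx3 was left out. The rule found 51 genes on 69 probes, among 5838 genes with a name. The 7 groups came from marrow of male CD1 mice, wild-type (WT) or Cox2 KO, aged 2 months, and before any treatment every culture was grown in 100 ng/ml of M-CSF. On day 1 there were 4 arrays of wild-type cells in M-CSF alone, 3 of wild-type cells with M-CSF and RANKL at 30 ng/ml each, and 3 of knockout cells with the same 2 factors. On day 3 there were 4 arrays each of wild-type cells with M-CSF and RANKL, wild-type cells with M-CSF, RANKL and the COX2 inhibitor NS398 at 0.1 µM, knockout cells with M-CSF and RANKL, and knockout cells with M-CSF, RANKL and PGE2 at 1 µM. The dose of M-CSF in the group without RANKL, and the doses of both factors on day 3, are not given in the sources used here. The knockout allele is not described further in those sources, no probe was named Ptgs2, and the genotype was therefore not checked on the arrays.

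Cells hold peroxides in check through linked systems. Glutathione, made by glutamate-cysteine ligase and glutathione synthetase, is spent by glutathione peroxidases and transferases, while thioredoxin reductase and thioredoxin feed electrons to peroxiredoxins and methionine sulfoxide reductases. NRF2, held back by KEAP1, switches on many of these genes. In macrophages RANKL starts osteoclast formation, reactive oxygen species from the NADPH oxidase take part in RANK signalling, and COX2 makes the precursor of PGE2, which acts back on the same cells.

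Markers of the culture's cell types were read first. Of 8 named osteoclast markers 7 rose with RANKL on day 1 and none fell, and their summed intensity went from 9782 to 11291 in M-CSF alone to 110638 to 115496 with RANKL. In the day 1 knockout with RANKL 5 of 8 were lower than in wild-type cells and none higher, with sums of 67152 to 93679, below every wild-type array with RANKL. Macrophage markers (9 named) were present in every group. On day 1 they summed to 160272 to 171661 in M-CSF alone, 141564 to 144313 with RANKL and 157919 to 164737 in the knockout. By count 4 rose and 4 fell with RANKL, and 3 were higher and 3 lower in the knockout. On day 3, 4 were higher and 1 lower in the knockout, 1 and 1 with NS398, and 1 and 3 with PGE2. Markers of neutrophils (9 named) summed to 10853 to 11552 in M-CSF alone, 82535 to 84180 with RANKL and 42376 to 57783 in the knockout with RANKL, with no overlap between these groups. On day 3 they summed to 2615 to 3807 in wild-type cells, 1476 to 2208 with NS398, 1377 to 1607 in the knockout and 4707 to 8786 in the knockout with PGE2. By count, 3 of the 9 neutrophil markers rose and 5 fell with RANKL on day 1. In the knockout 7 were higher and 2 lower than in wild-type cells with RANKL, so most moved against the sums. On day 1 S100a8 and S100a9 rose with RANKL while Ltf and Ngp fell, and in the knockout Ltf and Ngp were higher and S100a8 and S100a9 lower (4.28 ± 0.10, 3.07 ± 0.09, -1.26 ± 0.12 and -0.68 ± 0.11 log2). Markers of stromal cells (5 named) were on day 1 higher in knockout than in wild-type cells with RANKL for 4 of 5 and lower for 1. On day 3 the direction was reversed, with 0 higher and 2 lower in the knockout and 0 higher and 4 lower with NS398. With PGE2 on day 3, 5 of 5 were higher. The part of these markers in the results below was not tested, and the shares of other named genes called are given with each comparison below. In bulk RNA, fewer cells of a type and less RNA per cell cannot be told apart. Each array's correlation with its group mates lay between 0.994 and 0.995 on day 1 and between 0.980 and 0.989 on day 3, and array medians were nearly equal within an experiment (228 on day 1, 150.3 to 150.6 on day 3). Values are normalized intensities on a linear scale, the days were normalized separately, and no level was compared between them.

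RANKL moved most of these genes within 1 day in wild-type cells, and more of them upward. Compared with M-CSF alone, 30 of 51 genes rose and 16 fell (limma, Benjamini-Hochberg adjusted p under 0.05). Of the other named genes, 33.6% rose and 42.0% fell. The median difference was 0.38 on the log2 scale over the 51 genes, against -0.12 over the other named genes and -0.02 over all probes tested. Names were available only for probes that the authors listed as differing in at least 1 comparison, so a high share called was common to named genes.

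Loss of COX2 went mostly the other way in cells given RANKL for 1 day. Compared with wild-type cells, 28 of 51 genes were lower in the knockout and 13 were higher. Among other named genes the shares were 28.8% lower and 40.7% higher. Day 1 counts of a family or list below stand beside these shares and those with RANKL. The median difference was -0.30 over the 51 genes and 0.13 over the other named genes. The lower osteoclast marker sums and the changed macrophage, neutrophil and stromal markers given above belong to the same comparison. Both comparisons use the same wild-type arrays with RANKL, so their directions are not independent of each other and are given side by side. Replicates are called biological in the series without naming separate mice, so p-values measure the spread between these samples.

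**Figure D1:**
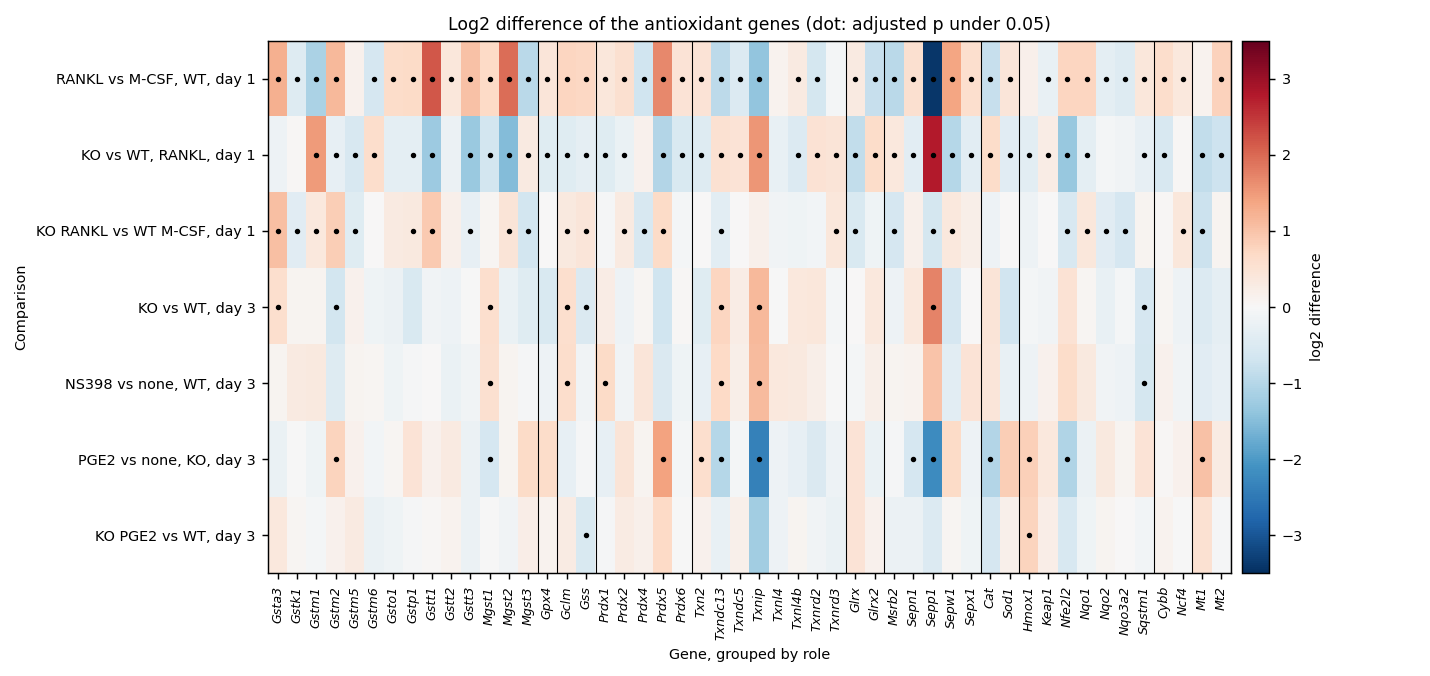
Log2 difference of 50 of the genes (horizontal axis, grouped by role with lines between roles) in 7 comparisons (vertical axis), red for higher and blue for lower in the first-named group, with a dot where the limma adjusted p is under 0.05. The darkest cells are those of Sepp1, at -3.40 with RANKL and 2.78 in the knockout on day 1, and dots are fewer in the day 3 rows.

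The transport protein of selenium and the inhibitor of thioredoxin showed the strongest falls with RANKL. Sepp1, now Selenop, encodes the secreted selenoprotein P that carries selenium between tissues. Its intensity was 29288, 30365, 34004 and 35859 in M-CSF alone, 2953, 2972 and 3232 with RANKL and 17233, 22137 and 24139 in knockout cells with RANKL. The 3 groups did not overlap: RANKL lowered it 10.6-fold (-3.40 ± 0.11, limma adjusted p = 6.6e-16), and knockout cells held 6.87-fold more than wild-type cells (2.78 ± 0.12, limma adjusted p = 1.0e-13). Knockout cells with RANKL remained below wild-type cells in M-CSF alone (-0.62 ± 0.11, limma adjusted p = 0.00029). Its second probe gave -3.41 and 2.91 for the first 2 differences.

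Txnip encodes the thioredoxin-interacting protein, which binds and inhibits thioredoxin and restrains glucose uptake. It read 18173, 20449.7, 20639.9 and 22824 in M-CSF alone, 7449, 8112 and 8205 with RANKL and 19153, 24636 and 25906 in the knockout. All wild-type arrays with RANKL lay below all arrays of the other groups, a fall of 2.58-fold with RANKL (-1.37 ± 0.11, limma adjusted p = 1.1e-09) and a level 2.91-fold higher in the knockout (1.54 ± 0.11, limma adjusted p = 7.9e-10). Against M-CSF alone the knockout with RANKL differed by 0.17 ± 0.11, limma adjusted p = 0.34.

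The windows upstream of these 2 genes were picked because they hold the motif below and both genes were low with RANKL and high in the knockout. RefSeq windows run from 250 bases before to 50 after a start site, and 45 of the 51 genes had one (GRCm38.p6). The forkhead core GTAAACA was searched on both strands. It occurs in 4.05% of all 27025 genes with a window and in 4 of these 45 (Glrx2, Sepp1, Txnip and Txnl4b). That is a description of letters and no evidence of binding. Of the 4, Glrx2 was also low with RANKL and high in the knockout, and Txnl4b went the opposite way. Gstm1, Cat and Txndc13 had the pattern of Sepp1 and Txnip and are not among the 4. The window of Sepp1 (the third of 3 start sites, shown because it holds the match, chr15:3270727-3271026, plus strand) has the match at -24 from the start, and that of Txnip (chr3:96557707-96558006, plus strand) at -121. Capitals mark the forkhead core.
Sepp1: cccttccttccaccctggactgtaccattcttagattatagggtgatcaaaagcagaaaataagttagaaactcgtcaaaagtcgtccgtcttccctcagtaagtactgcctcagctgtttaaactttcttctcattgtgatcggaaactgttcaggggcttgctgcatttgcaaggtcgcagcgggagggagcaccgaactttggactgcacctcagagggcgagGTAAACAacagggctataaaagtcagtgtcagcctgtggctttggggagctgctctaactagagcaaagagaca
Txnip: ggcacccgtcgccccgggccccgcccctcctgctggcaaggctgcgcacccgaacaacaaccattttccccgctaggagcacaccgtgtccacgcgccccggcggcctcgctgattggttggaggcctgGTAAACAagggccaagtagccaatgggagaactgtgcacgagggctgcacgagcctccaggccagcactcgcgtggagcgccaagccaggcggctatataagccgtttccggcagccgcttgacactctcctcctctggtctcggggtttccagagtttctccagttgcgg

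Other genes of the thioredoxin system were divided. Of 8 genes with the Txn prefix, 2 rose and 4 fell with RANKL (33.6% and 42.0% of other named genes). In the knockout 5 were higher and 2 lower (40.7% and 28.8%). Txndc13, now Tmx4, encodes a thioredoxin-like protein of the endoplasmic reticulum membrane. It measured 4167, 4358, 4496 and 4851 in M-CSF alone, 2345, 2354 and 2369 with RANKL and 2999, 3350.1 and 4058 in the knockout. The groups stood apart, with differences of -0.92 ± 0.10, limma adjusted p = 1.5e-07, for RANKL and of 0.55 ± 0.11, limma adjusted p = 0.00033, for the knockout. Txndc5, a protein disulfide isomerase, and Txnrd2, the mitochondrial thioredoxin reductase, also fell with RANKL (-0.49 and -0.61 log2) and were higher in the knockout (0.49 and 0.51). Txn2, the mitochondrial thioredoxin, moved in the opposite direction, with 1067 ± 83.9 (SD, n = 4) in M-CSF alone, 1488 ± 11.3 (SD, n = 3) after RANKL and 1084 ± 77.8 (SD, n = 3) in the knockout (0.48 ± 0.09, limma adjusted p = 0.00016, and -0.46 ± 0.09, limma adjusted p = 0.00065). Txnrd3 was higher in the knockout alone of these 2 comparisons (0.45 ± 0.11, against -0.06 ± 0.10 for RANKL). Txnl4 and Txnl4b carry the prefix but encode parts of the splicing machinery. Txnl4b rose with RANKL by 0.32, a call lost without wild-type RANKL array 12 (adjusted p = 0.051), and was lower in the knockout (a difference of -0.48 ± 0.10), while Txnl4 differed by 0.13 ± 0.10 and -0.25 ± 0.11 without passing the test. Txn1 and Txnrd1 were not named on any probe and are not analysed here.

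Peroxiredoxins rose together in 4 of 5 cases, and 4 of 5 were lower in the knockout (33.6% and 28.8% of other named genes). Prdx5, which reduces peroxides in mitochondria, peroxisomes and cytosol, had the largest rise of the family. Its arrays read 16024, 19582, 19764 and 21224 in M-CSF alone, 59934, 60588 and 63538 with RANKL and 25434, 31418 and 34350.0 in the knockout. No 2 groups overlapped, with a rise of 3.22-fold (1.69 ± 0.11, limma adjusted p = 5.9e-11) and a knockout level 2.03-fold lower (-1.02 ± 0.12, limma adjusted p = 5.1e-07). The top value on the day 1 arrays was 71707, and bright probes may be compressed there. The dimmer second probe of Prdx5 gave 2.58 and -2.26 for the same differences.

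Prdx1, a cytosolic peroxiredoxin and NRF2 target, measured 1573, 1579, 1681 and 1939 in M-CSF alone, 1886, 2335 and 2422 with RANKL and 1396, 1669.6 and 1876 in the knockout. The first 2 groups overlapped in range, with a difference of 0.38 ± 0.11, limma adjusted p = 0.010, which was lost without wild-type RANKL array 11 (adjusted p = 0.067). The knockout difference was -0.43 ± 0.12, limma adjusted p = 0.0087, lost without knockout array 20 or wild-type array 11 (adjusted p up to 0.072). Prdx2 and Prdx6 rose by 0.57 ± 0.08 and 0.47 ± 0.08 with RANKL and were lower in the knockout, with differences of -0.24 ± 0.09 and -0.54 ± 0.09. The Prdx2 difference in the knockout was lost under 7 alternatives, among them leaving out any of 4 arrays (adjusted p up to 0.23). Prdx4, the peroxiredoxin of the endoplasmic reticulum, was the exception: it fell with RANKL, from 21819 ± 2047 to 13316 ± 857 (-0.71 ± 0.09, limma adjusted p = 1.8e-06), and the knockout difference of 0.15 ± 0.10 did not pass the test.

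**Figure D2:**
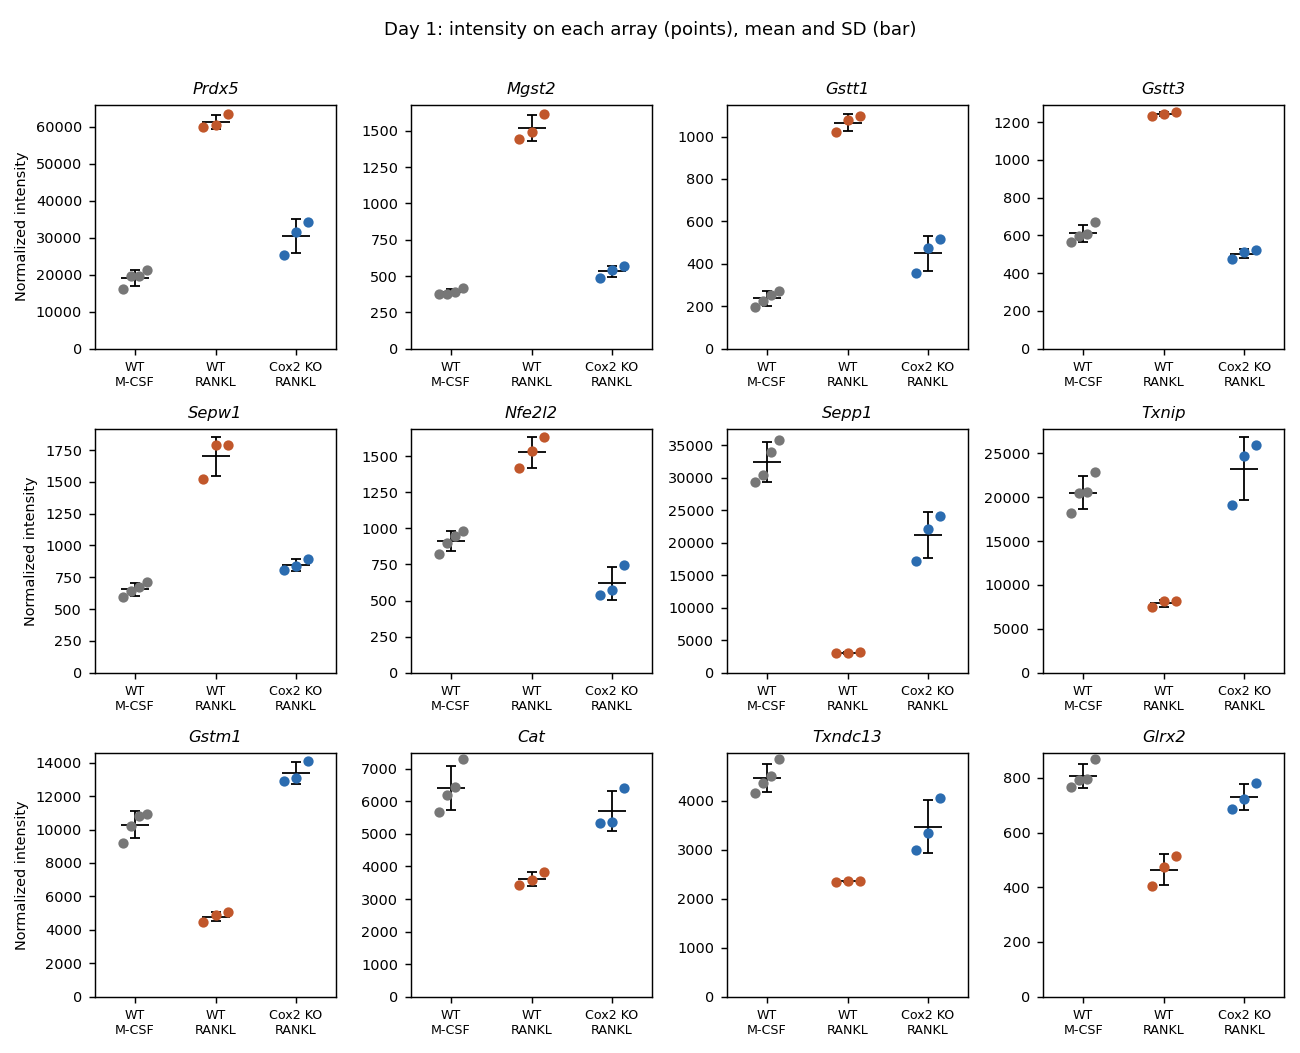
Normalized intensity (vertical axis, linear and starting at 0) of 12 genes on day 1 arrays (points), with the mean and SD of each group, for wild-type cells in M-CSF (n = 4), wild-type cells with RANKL (n = 3) and Cox2 KO cells with RANKL (n = 3). The first 6 genes were highest in wild-type cells with RANKL, and the last 6, from Sepp1 to Glrx2, were lowest there.

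Glutathione transferases conjugate glutathione to reactive compounds, and the microsomal enzymes of the group also take part in eicosanoid metabolism. Of 14 named, 9 rose and 4 fell with RANKL (33.6% and 42.0% of other named genes). In the knockout 7 were lower and 3 higher (28.8% and 40.7%). Gstt1, a theta class enzyme, had the largest rise when each gene was read on its brightest probe. It read 195, 226, 253 and 274 in M-CSF alone, where it was not above background by the authors' detection p-value, then 1022, 1078 and 1096 with RANKL and 357, 476 and 518 in the knockout. The groups did not overlap, and the rise with RANKL was at least 4.53-fold as the ratio of geometric means (2.18 ± 0.12, limma adjusted p = 6.0e-12). Knockout cells were 2.39-fold lower (-1.26 ± 0.13, limma adjusted p = 1.4e-07) yet stood at least 1.89-fold, on the same scale, above M-CSF alone (0.92 ± 0.12, limma adjusted p = 1.2e-05).

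Mgst2, a microsomal transferase able to make leukotriene C4, measured 375, 379, 392 and 416 in M-CSF alone, 1444, 1489.6 and 1616 with RANKL and 487, 539.5 and 567 in the knockout. Each group was separate from the others. The rise was 3.88-fold (1.96 ± 0.09, limma adjusted p = 1.4e-13) and the knockout was 2.86-fold lower (-1.51 ± 0.09, limma adjusted p = 4.8e-11), the largest deficit when each gene was read on its brightest probe. Gstt3, another theta class gene, gave 567, 595, 607 and 672, then 1232, 1244 and 1252 and 476, 515 and 520.2 in the same order of groups. It rose with RANKL (1.03 ± 0.09, limma adjusted p = 3.3e-09), and in the knockout it was lower than in wild-type cells with RANKL (-1.30 ± 0.09, limma adjusted p = 3.6e-10). Against M-CSF alone the knockout difference of -0.28 ± 0.09 was called, but 6 alternatives ended that call (adjusted p up to 0.14), leaving out any of 5 arrays among them.

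The alpha class Gsta3 and the mu class Gstm2 were higher in RANKL-treated cells of either genotype than in wild-type cells in M-CSF alone. Knockout cells without RANKL were not measured, so a response to RANKL within the knockout cannot be read. Gsta3 read 2958, 3244, 3346 and 3484 in M-CSF alone, 7507, 7680.3 and 7748 with RANKL and 6471, 6789.8 and 7103 in the knockout. Every RANKL array of either genotype was above every wild-type array in M-CSF alone. Against the latter the difference was 1.23 ± 0.09, limma adjusted p = 1.8e-10, for wild-type and 1.06 ± 0.09, limma adjusted p = 1.1e-08, for knockout cells. The knockout differed from wild-type cells by -0.17 ± 0.09, limma adjusted p = 0.16. Gstm2 read 6033, 6135, 6719 and 6812, then 12987, 14579 and 14607 and 11349, 11495 and 11949.7 in the same groups. It rose 2.19-fold with RANKL in wild-type cells, and knockout cells with RANKL stood 1.81-fold above wild-type cells in M-CSF alone. The smaller level in the knockout than in wild-type cells with RANKL (-0.28 ± 0.09, limma adjusted p = 0.025) was lost under 5 alternatives (adjusted p up to 0.088), among them leaving out wild-type array 10 or 11 or knockout array 19 or 21.

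Gstm1, the neighbour of Gstm2 in the mu class, went the other way. Its intensity was 9207, 10204, 10838 and 10924 in M-CSF alone, 4462, 4890.0 and 5037 with RANKL and 12914, 13061 and 14106 in the knockout. Wild-type cells with RANKL were lowest and the knockout highest, with a fall of 2.14-fold (-1.10 ± 0.09, limma adjusted p = 2.3e-09) and a knockout excess of 2.79-fold (1.48 ± 0.10, limma adjusted p = 9.9e-11). Gstm6 was likewise lowest in wild-type cells with RANKL, with 413, 459, 475 and 526 in M-CSF alone, 263, 332 and 340.1 with RANKL and 434, 465 and 518 in the knockout. RANKL changed it by -0.59 ± 0.11 and the knockout by 0.61 ± 0.11, and the knockout overlapped M-CSF alone (0.01 ± 0.11). Mu class genes and the pi class pair Gstp1 and Gstp2 are close in sequence, so which of them a probe reads is uncertain.

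Among the remaining transferases, Mgst1, a detoxifying enzyme of the endoplasmic reticulum and mitochondrial membranes, read 11333, 11453, 12315 and 15593 in M-CSF alone, 19153, 19665 and 21869 with RANKL and 12408, 12535 and 14300.1 in the knockout. RANKL arrays of wild-type cells were above all others (0.68 ± 0.11, limma adjusted p = 2.6e-05, and -0.63 ± 0.11, limma adjusted p = 0.00019, for the knockout). Mgst3 read 2969, 3253, 3578 and 3601, then 1674, 1749.7 and 1759 and 2043, 2049 and 2355. It fell with RANKL in wild-type cells (-0.95 ± 0.09, limma adjusted p = 3.5e-08). Knockout cells with RANKL were also below wild-type cells in M-CSF alone (-0.64 ± 0.09, limma adjusted p = 3.3e-05). Their higher level against wild-type cells with RANKL (0.31) was lost under 5 alternatives (adjusted p up to 0.23), among them leaving out wild-type array 12 or knockout array 20. Gsto1, Gstp1 and Gstt2 rose by 0.63, 0.68 and 0.40, Gstk1 fell by 0.44, and Gstm5 differed by 0.14 ± 0.09 with RANKL but was lower in the knockout (-0.57 ± 0.09). The rise of Gstt2 was lost without wild-type RANKL array 11 (adjusted p = 0.067).

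Both named genes of glutathione synthesis rose with RANKL and were lower in the knockout. Gclm, the modifier subunit of glutamate-cysteine ligase, read 8636, 8977, 9518 and 10452 in M-CSF alone, 15336, 15516 and 16679 with RANKL and 10892, 12183 and 12609 in the knockout. The knockout lay between the wild-type groups without overlap (0.76 ± 0.09, limma adjusted p = 8.3e-07, for RANKL, and -0.42 ± 0.10, limma adjusted p = 0.0021, for the knockout). Gss, glutathione synthetase, read 353, 355, 392 and 399, then 589, 597 and 664 and 471, 499 and 529. It too was intermediate in the knockout (0.72 ± 0.09, limma adjusted p = 1.1e-06, and -0.30 ± 0.09, limma adjusted p = 0.016), and the second of these calls was lost without wild-type array 12 or knockout array 20 (adjusted p up to 0.082). Gclc and Gsr were not named and are not analysed here.

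A transport gene that supplies the pathway was read beside its members. Slc7a11, the cystine carrier that feeds glutathione synthesis, went from a mean of 1413 in M-CSF alone to 13888 with RANKL (3.29 ± 0.11 log2, limma adjusted p = 1.1e-15) and stood at 3329 in the knockout (-2.06 ± 0.12, limma adjusted p = 1.2e-11). The list of transport and turnover of glutathione as a whole did not follow Slc7a11. Of its 6 named genes, 3 rose and 2 fell with RANKL (33.6% and 42.0% of other named genes). In the knockout 3 were higher and 3 lower (40.7% and 28.8%). Their summed intensity was 29598 to 34055 in M-CSF alone, 29755 to 33720 with RANKL and 40610 to 47461 in the knockout.

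Selenoproteins and methionine sulfoxide reductases were split. Of 5 genes, 3 rose and 2 fell with RANKL (33.6% and 42.0% of other named genes), Sepp1 being 1 of the latter. In the knockout 3 were lower and 2 higher (28.8% and 40.7%). Sepw1, now Selenow, encodes a small selenoprotein with a thioredoxin-like fold. Its values were 592, 639.7, 674 and 715 in M-CSF alone, 1524, 1789 and 1789.9 with RANKL and 808, 836 and 898 in the knockout. The groups did not overlap (1.38 ± 0.09, limma adjusted p = 1.3e-10, for RANKL, and a knockout level 2.00-fold lower, limma adjusted p = 7.4e-08). Msrb2, the mitochondrial methionine sulfoxide reductase, read 542, 555, 568 and 596, then 237, 313 and 343 and 361, 376 and 398. RANKL lowered it in wild-type cells (-0.94 ± 0.11, limma adjusted p = 3.2e-07). Knockout cells with RANKL were also below wild-type cells in M-CSF alone (-0.58 ± 0.11, limma adjusted p = 0.00045). Their higher level against wild-type cells with RANKL (0.36 ± 0.11) was lost without wild-type array 10 or knockout array 19 (adjusted p up to 0.15). Sepx1, now Msrb1, and Sepn1, now Selenon, rose by 0.60 ± 0.08 and 0.55 ± 0.09 and were lower in the knockout, with differences of -0.38 ± 0.09 and -0.37 ± 0.10, the second lost with a term for the ratio of 2 Actb probes (adjusted p = 0.058). Sephs2, which makes the selenium donor for all selenoproteins, was the only other gene of selenium handling with a name, and went from 2334 to 1168 with RANKL (-1.01 ± 0.09) and stood at 2178 in the knockout (0.91 ± 0.10).

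Catalase and superoxide dismutase moved in opposite directions. Cat, the peroxisomal catalase, read 5681, 6202, 6439.6 and 7297 in M-CSF alone, 3429, 3585 and 3843 with RANKL and 5339.5, 5352 and 6402 in the knockout. Wild-type cells with RANKL lay below the other groups (-0.82 ± 0.10, limma adjusted p = 8.7e-07, and 0.65 ± 0.11, limma adjusted p = 5.1e-05). Sod1, the cytosolic copper and zinc dismutase, read 9049.8, 9099, 10196 and 11475, then 12684, 13061 and 13891 and 9346, 10365 and 10546. Here the wild-type arrays with RANKL were above the rest (0.41 ± 0.10, limma adjusted p = 0.0015, and -0.39 ± 0.10, limma adjusted p = 0.0051). Gpx4, the glutathione peroxidase of lipid peroxides, read 4287, 6009, 6294 and 7259.6, then 7554, 7965 and 8212 and 5023, 6237 and 6579. It rose with RANKL (0.43 ± 0.13, limma adjusted p = 0.014; lost without M-CSF array 6, adjusted p = 0.0504) and was lower in the knockout (-0.42 ± 0.14, limma adjusted p = 0.028; lost without wild-type array 11 or 12 or knockout array 19, adjusted p up to 0.16). Among 10 other named genes of superoxide and peroxide handling, 5 rose and 3 fell with RANKL (33.6% and 42.0% of other named genes). In the knockout 3 were higher and 7 lower (40.7% and 28.8%). Sod2, the mitochondrial dismutase, went from 7764 to 56124 with RANKL (2.86 ± 0.09) and was at 11058 in the knockout (-2.34 ± 0.10), while the sestrin gene Sesn1 moved from 5262 to 737 and stood at 3372.

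Glutaredoxins, which use glutathione to reduce protein disulfides, were likewise opposed. Glrx, cytosolic, rose (0.32 ± 0.08, limma adjusted p = 0.0046) and was lower in the knockout (-0.86 ± 0.09, limma adjusted p = 1.7e-07). Its knockout arrays, 27946, 30271 and 32367, were also below all arrays in M-CSF alone, 41772, 43371, 43966 and 46272. Glrx2, mitochondrial, read 767, 794, 796 and 868 in M-CSF alone, 404, 475 and 514 with RANKL and 685, 722 and 780.3 in the knockout. It fell with RANKL (-0.80 ± 0.09, limma adjusted p = 6.2e-07), and the knockout was higher than wild-type cells (0.66 ± 0.10, limma adjusted p = 2.8e-05).

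The transcription factor itself was among the genes that were lower without COX2. Nfe2l2, which encodes NRF2, read 823, 901, 947 and 979 in M-CSF alone, 1417, 1534 and 1631 with RANKL and 536, 575 and 747 in the knockout. RANKL raised it 1.67-fold (0.74 ± 0.11, limma adjusted p = 9.1e-06). Knockout cells were 2.49-fold lower than wild-type cells with RANKL (-1.31 ± 0.11, limma adjusted p = 1.1e-08) and also below wild-type cells in M-CSF alone (-0.57 ± 0.11, limma adjusted p = 0.00060). Nqo1, the quinone reductase that is a standard readout of NRF2, read 272, 289, 292 and 325, then 489.5, 492 and 502 and 351, 384 and 433. It rose (0.75 ± 0.09, limma adjusted p = 1.1e-06) and was intermediate in the knockout (-0.35 ± 0.10, limma adjusted p = 0.0084; lost without knockout array 19, adjusted p = 0.057).

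Sqstm1, an autophagy receptor that binds KEAP1, read 20969, 22321, 23555 and 23667 in M-CSF alone, 28922, 30119 and 30365 with RANKL and 23292, 24580.2 and 25223 in the knockout. Wild-type arrays with RANKL were the highest (0.40 ± 0.08, limma adjusted p = 0.00059, and -0.29 ± 0.09, limma adjusted p = 0.015, the latter lost without knockout array 20, adjusted p = 0.065). Hmox1, heme oxygenase, read 2495, 2989.7, 3048 and 3109, then 2978, 3323 and 3515 and 2095, 2664 and 2962. RANKL gave 0.17 ± 0.11, short of the threshold, and the knockout was lower (-0.36 ± 0.12, limma adjusted p = 0.027), a call lost without any of 3 arrays (wild-type 10 or 11 or knockout 19, adjusted p up to 0.19). Keap1 read 2104, 2106, 2307 and 2401, then 1804, 1807 and 1986 and 2044, 2263 and 2392. Its differences of -0.26 ± 0.09 and 0.26 ± 0.10 were called, but under 6 and 9 alternatives they were not, and its second probe gave -0.04 for the knockout. Nqo2 fell with RANKL (-0.34 ± 0.10), as did Nqo3a2 (-0.46 ± 0.11), an older symbol of the cytochrome b5 reductase gene Cyb5r1 in the files' own definition. Of 13 other NRF2 targets with a name, 6 rose and 5 fell with RANKL (33.6% and 42.0% of other named genes). In the knockout 6 were higher and 4 lower (40.7% and 28.8%).

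The windows of Nfe2l2 and of 2 transferase and synthesis genes were picked because they hold the motif below and their genes moved together on day 1. The core of the antioxidant response element, TGACNNNGC on either strand, was present in the windows of 14.0% of all genes and of 11 of the 45 (24.4%): Gclm, Gsta3, Gstm5, Mgst1, Msrb2, Mt2, Nfe2l2, Prdx1, Sod1, Txndc13 and Txndc5. These 11 include genes that rose and genes that fell with RANKL. Nqo1, Gss, Sepw1 and Prdx5, which moved on day 1 as the genes shown did, are not among them. The letters are no evidence of binding. Where a gene has more than 1 start site, the window with the match is shown, as for Mgst1 with 2. The match starts at -134 in Gclm (chr3:122245307-122245606, plus strand), at -56 in Mgst1 (chr6:138140277-138140576, plus strand) and at -240 in Nfe2l2 (chr2:75704614-75704913, minus strand). Capitals mark the core, which lies on the reverse strand in the first 2.
Gclm: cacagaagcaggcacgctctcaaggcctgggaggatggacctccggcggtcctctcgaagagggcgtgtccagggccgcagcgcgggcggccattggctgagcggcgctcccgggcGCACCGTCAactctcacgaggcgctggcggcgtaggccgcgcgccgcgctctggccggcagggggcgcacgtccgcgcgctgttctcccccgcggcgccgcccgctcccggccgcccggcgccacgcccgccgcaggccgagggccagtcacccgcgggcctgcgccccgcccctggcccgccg
Mgst1: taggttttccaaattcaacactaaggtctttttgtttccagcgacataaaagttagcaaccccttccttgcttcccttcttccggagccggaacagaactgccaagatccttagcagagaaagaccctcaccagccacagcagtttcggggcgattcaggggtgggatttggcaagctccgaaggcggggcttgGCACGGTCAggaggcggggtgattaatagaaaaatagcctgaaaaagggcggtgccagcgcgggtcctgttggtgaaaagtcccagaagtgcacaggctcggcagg
Nfe2l2: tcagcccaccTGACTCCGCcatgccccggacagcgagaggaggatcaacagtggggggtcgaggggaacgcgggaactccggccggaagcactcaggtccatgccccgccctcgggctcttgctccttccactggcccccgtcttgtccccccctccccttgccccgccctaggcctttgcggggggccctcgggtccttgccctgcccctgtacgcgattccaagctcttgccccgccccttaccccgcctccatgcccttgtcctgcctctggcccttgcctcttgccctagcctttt

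Subunits of the phagocyte NADPH oxidase rose with RANKL. Cybb, its catalytic membrane subunit, read 292, 310.4, 323 and 357 in M-CSF alone, 418, 497 and 558 with RANKL and 268, 351 and 381 in the knockout. Wild-type cells with RANKL were above both other groups (0.61 ± 0.12, limma adjusted p = 0.00030, and -0.57 ± 0.13, limma adjusted p = 0.0014). Ncf4, a cytosolic subunit, read 20717, 20897, 22534 and 26912, then 27564, 28579 and 31028 and 26618, 31418 and 31418 (0.36 ± 0.10, limma adjusted p = 0.0080, and 0.03 ± 0.11, limma adjusted p = 0.86). The knockout differed from wild-type cells for Cybb by the test and for Ncf4 by less than the threshold. Whether the 2 genes differ from each other was not tested. Of 7 other named parts and regulators of the oxidase, 5 rose and 1 fell with RANKL, and 2 were higher and 2 lower in the knockout. For this list and the next, the shares of other named genes were 33.6% and 42.0%, then 40.7% and 28.8%. In NADPH supply, 5 of 7 genes rose and 1 fell with RANKL, and 2 were higher and 5 lower in the knockout. The exception that fell was Idh1, cytosolic isocitrate dehydrogenase, from 7918 to 4314 (-0.87 ± 0.08), at 8160.2 in the knockout (0.92 ± 0.09).

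Metallothioneins, small proteins that bind zinc and copper and scavenge radicals, were lower in the knockout in both cases. Mt1 read 49721, 51032, 51825 and 55084 in M-CSF alone, 54671, 56798 and 57733 with RANKL and 29412, 29567 and 33577 in the knockout. The wild-type groups overlapped (0.12 ± 0.08, limma adjusted p = 0.30), and every knockout array was below every wild-type array (-0.87 ± 0.09, limma adjusted p = 1.4e-07, against wild-type cells with RANKL, and -0.75 ± 0.08, limma adjusted p = 1.4e-06, against M-CSF alone). At these intensities compression near the top of the scale could shrink the differences. Mt2, on a dim probe, read 185, 237, 267 and 280.4, then 323, 461 and 497 and 249, 250.1 and 269.9. Its wild-type RANKL arrays were the highest (0.81 ± 0.14, limma adjusted p = 7.3e-05, and -0.71 ± 0.15, limma adjusted p = 0.00072).

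The windows of both genes are shown for matches to the core of the metal response element, to which the zinc sensor MTF1 binds. The cores TGCACNC and TGCGCNC, on both strands, were found in 28.2% of all genes and in 14 of the 45 (31.1%), so a single match is common. Mt1 (chr8:94178839-94179138, plus strand) has 3 and Mt2 (chr8:94172368-94172667, plus strand) has 4, in capitals. They begin at -23, 2 and 20 from the start in Mt1 and at -223, -128, -50 and 4 in Mt2. Those at -50 and 4 lie on the reverse strand. The window of Gclm above also has 3, and how many genes have as many was not counted. A match of letters is no evidence of binding. Over the 45 genes, matches of different motifs searched overlapped at 1 place.
Mt1: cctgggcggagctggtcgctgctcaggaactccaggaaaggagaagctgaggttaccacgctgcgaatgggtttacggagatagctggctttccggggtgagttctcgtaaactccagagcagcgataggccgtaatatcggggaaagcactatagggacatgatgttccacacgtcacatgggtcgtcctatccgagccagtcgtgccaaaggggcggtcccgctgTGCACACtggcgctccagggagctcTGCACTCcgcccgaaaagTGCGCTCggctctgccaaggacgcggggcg
Mt2: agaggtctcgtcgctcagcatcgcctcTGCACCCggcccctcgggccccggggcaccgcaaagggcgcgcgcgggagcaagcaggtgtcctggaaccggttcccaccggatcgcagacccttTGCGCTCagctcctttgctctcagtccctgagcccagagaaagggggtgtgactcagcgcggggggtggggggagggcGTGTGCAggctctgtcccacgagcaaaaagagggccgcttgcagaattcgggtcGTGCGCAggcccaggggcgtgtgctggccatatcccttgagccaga

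Knockout cells given RANKL were then set against wild-type cells that never received it. In this comparison 14 of 51 genes were higher and 13 lower, with shares of 15.2% and 15.7% among other named genes, and the median was 0.02 for both sets. Largest among the rises were Gsta3, Gstt1, Gstm2, Prdx5 and Mgst2, given above, with Gss (0.42 ± 0.09, limma adjusted p = 0.0020), whose second probe gave 0.12 (adjusted p = 0.57). Largest among the falls were Mt1, Mgst3, Sepp1, Msrb2, Nqo3a2 and Nfe2l2. Nqo3a2 read 1866, 2102, 2362 and 2425 in M-CSF alone and 1322, 1386 and 1698 in the knockout (-0.58 ± 0.11, limma adjusted p = 0.00053). The 14 became 9 without knockout array 20. Genotype and RANKL differ together here and cannot be told apart.

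After 3 days of RANKL, Sepp1 and Txnip were again the genes with the largest excess in the knockout, and fewer genes were called than on day 1. Knockout cells were higher than wild-type cells for 7 of 51 genes and lower for 3, against 8.7% and 7.54% of the other named genes. The median difference was -0.02 over the 51 genes and 0.02 over the others. Among the genes higher in the knockout were Sepp1, Txnip, Txndc13, Gsta3, Mgst1 and Gclm, and those lower were Gstm2, Sqstm1 and Gss.

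Sepp1 was again higher without COX2. Its arrays read 886, 1221, 2630.4 and 3604 in wild-type and 2818, 6588, 8245 and 8320.2 in knockout cells. The lowest knockout array lay within the wild-type range, and the difference of 1.74 ± 0.46, limma adjusted p = 0.033, was lost under 7 alternatives (adjusted p up to 0.12), among them leaving out wild-type array 2 or 4 or knockout array 7, 8 or 11. Txnip read 1653, 1835, 2983 and 3069 in wild-type and 3593, 4776, 5458 and 7026 in knockout cells. These did not overlap (1.14 ± 0.30, limma adjusted p = 0.032), though the call was lost without any of those same 5 arrays (adjusted p up to 0.11). Txndc13 read 544, 593, 681 and 684 and 937, 969, 1089 and 1185, again without overlap (0.74 ± 0.14, limma adjusted p = 0.0035).

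The 2 detoxifying genes that had been lower in the knockout on day 1 were higher on day 3. Mgst1 read 1568, 1632, 1705 and 1935 in wild-type and 2387, 2416, 2533 and 2957 in knockout cells (0.59 ± 0.12, limma adjusted p = 0.0052). Gclm read 2471, 2584, 2768 and 2812 and 3682, 3768, 3963 and 4489 (0.58 ± 0.10, limma adjusted p = 0.0012). In both cases all knockout arrays were above all wild-type arrays. Calls for Mgst1, Gclm and Txndc13 held under every alternative tried for this comparison, and those for the other 7 genes were each lost under at least 1.

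Gsta3 read 1847, 1857, 2432 and 2575 in wild-type and 2869, 3146, 3244 and 3796 in knockout cells (0.59 ± 0.16, limma adjusted p = 0.032). Its arrays were separate, but the call was lost under 6 alternatives (adjusted p up to 0.088), among them leaving out wild-type array 3 or 6 or knockout array 7, 11 or 12r.

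Among the lower genes, Gstm2 read 2095, 2418, 2808 and 2919.8 in wild-type and 1514, 1610.0, 1611 and 1761 in knockout cells (-0.65 ± 0.15, limma adjusted p = 0.016), and the call was lost without wild-type array 2 or 4 or knockout array 8 (adjusted p up to 0.064). Sqstm1 read 19030.4, 21393, 22412 and 23395 and 11739, 12301, 16977 and 17318 (-0.58 ± 0.16, limma adjusted p = 0.045), close to the threshold, and was lost under 12 alternatives (adjusted p up to 0.15). Gss read 370.3, 436, 460.4 and 465 and 281, 298, 309 and 325 (-0.51 ± 0.09, limma adjusted p = 0.0016). Its knockout arrays lay below all wild-type arrays, but the second probe of Gss showed no such difference (0.02, adjusted p = 0.98). Without 1 array the count of 7 fell to 3 (knockout array 7 or 11) or 4 (wild-type array 2 or knockout array 8), and the count of 3 fell to 1 (wild-type array 2 or 4).

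Across the 2 days, which were hybridised to different arrays, 8 genes were called for genotype on both. Sepp1, Txnip and Txndc13 were higher in the knockout each time, and Gss, Gstm2 and Sqstm1 were lower each time. Of these, only Txndc13 kept its call under every alternative on both days. Gclm (-0.42 on day 1 and 0.58 on day 3) and Mgst1 (-0.63 and 0.59) changed sign. The difference between days itself was not tested, since the days were normalized separately.

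Blocking COX2 with NS398 in wild-type cells gave a small set. On day 3, 6 of 51 genes were higher and 1 was lower with the inhibitor, against 7.33% and 7.49% of other named genes, and the median was 0.09 over the 51 genes and 0.00 over the others. The higher genes included Txnip, Txndc13, Prdx1, Gclm and Mgst1, and the lower was Sqstm1. This comparison shares its wild-type arrays with the genotype comparison of day 3, so values are given beside those above without reading their likeness.

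Txnip read 4184, 4227, 4295 and 7630.5 with NS398 (1.10 ± 0.30, limma adjusted p = 0.041), above every wild-type array without it. The call was lost under 10 alternatives (adjusted p up to 0.14), among them leaving out wild-type array 2 or 4, any NS398 array (13, 16r, 17 or 18), knockout array 8 or 11, or PGE2 array 23r. Txndc13 read 857, 938, 1108 and 1139 (0.69 ± 0.14, limma adjusted p = 0.0063), Mgst1 2228, 2314, 2760.5 and 2909 (0.57 ± 0.12, limma adjusted p = 0.0065) and Gclm 3702, 3936, 3941 and 4738 (0.61 ± 0.10, limma adjusted p = 0.00075). None of these 3 overlapped with untreated wild-type arrays, and their calls held under every alternative tried. Prdx1 read 186, 211, 233 and 256 without and 261, 344, 401 and 404 with NS398 (0.66 ± 0.17, limma adjusted p = 0.031). That call was lost under 7 alternatives (adjusted p up to 0.10), including leaving out wild-type array 2, 4 or 6 or NS398 array 16r, 17 or 18. Sqstm1 read 11949, 12805, 14442 and 18159 (-0.60 ± 0.16, limma adjusted p = 0.039), below untreated cells, and was lost under 9 alternatives (adjusted p up to 0.12), among them leaving out any untreated array (2, 3, 4 or 6), NS398 array 13, 17 or 18 or PGE2 array 23r.

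Knockout cells and NS398-treated wild-type cells, both meant to lack COX2 activity, were compared with each other, and no member passed the test. By limma 0 of 51 genes differed after adjustment, 10 had an unadjusted p under 0.05, and among other named genes 0.999% were higher and 0.947% lower in the knockout. The difference was 0.73 ± 0.46 for Sepp1, 0.05 ± 0.30 for Txnip, 0.05 ± 0.14 for Txndc13, 0.02 ± 0.12 for Mgst1 and -0.04 ± 0.10 for Gclm. For Gss it was -0.39 ± 0.09, limma adjusted p = 0.057, the closest to the threshold. A p above the threshold does not show that the treatments act alike.

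**Figure D3:**
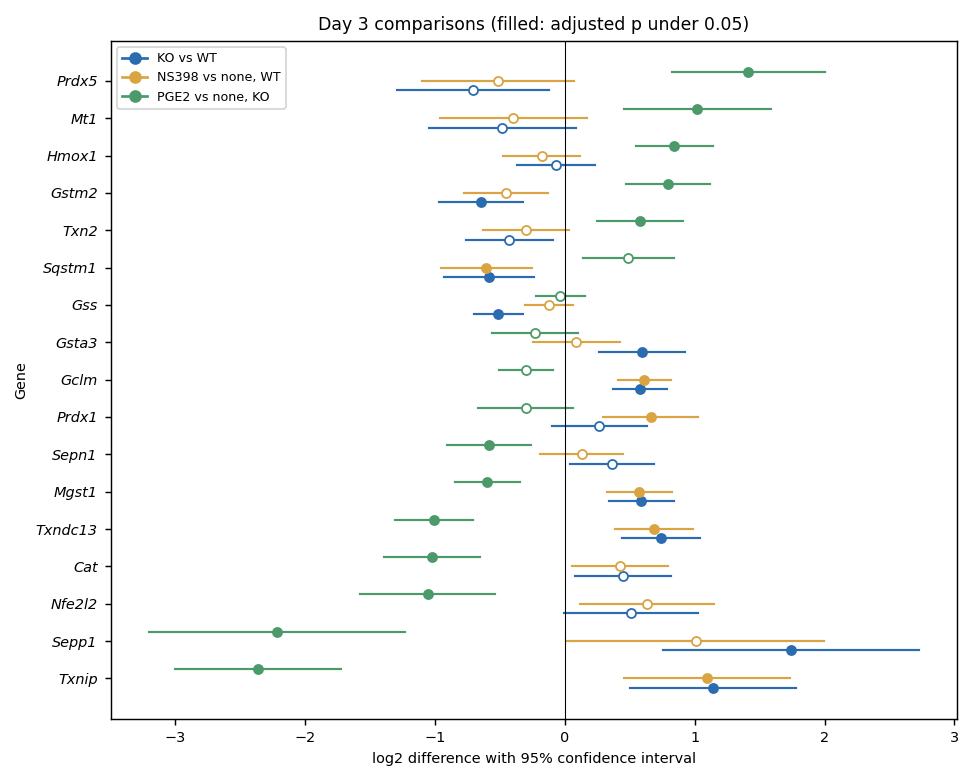
Log2 difference (horizontal axis) with its 95% confidence interval for 17 genes called in at least 1 of 3 day 3 comparisons (vertical axis), filled where the limma adjusted p is under 0.05. Txnip and Sepp1 fell most with PGE2 in knockout cells, and Prdx5 and Mt1 rose most.

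In knockout cells given PGE2, Txnip, Sepp1 and NRF2 message were lower and Prdx5, Mt1 and Hmox1 higher than in knockout cells without it. With PGE2, 5 of 51 genes were higher and 8 lower than in knockout cells without it, against 15.1% and 16.8% of the other named genes. The median difference was -0.01 over the 51 genes and 0.00 over the others. Neutrophil and stromal markers moved in the same comparison, with 5 of 9 and 5 of 5 higher and none lower. Of 9 macrophage markers 1 was higher and 3 lower, and of 8 osteoclast markers 1 was higher and 2 lower. The part of these markers was not tested. The higher genes were Prdx5, Mt1, Hmox1, Gstm2 and Txn2. The lower genes included Txnip, Sepp1, Nfe2l2, Cat, Txndc13, Mgst1 and Sepn1.

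Txnip fell most. Its arrays read 3593, 4776, 5458 and 7026 in knockout cells and 528, 1161, 1178 and 1302 with PGE2, 5.14-fold lower and without overlap (-2.36 ± 0.30, limma adjusted p = 7.1e-05). Sepp1 read 2818, 6588, 8245 and 8320.2 without and 636, 1490.1, 1496 and 1940.3 with PGE2, 4.64-fold lower (-2.21 ± 0.46, limma adjusted p = 0.0045). The dimmer probe of Sepp1 gave -0.85 (adjusted p = 0.18), short of the threshold. All PGE2 arrays of both genes were below all knockout arrays without it. Txndc13 read 386, 516, 562 and 639 with PGE2 (-1.01 ± 0.14, limma adjusted p = 0.00017) and Mgst1 1431, 1583, 1797 and 2039 (-0.59 ± 0.12, limma adjusted p = 0.0030), again below every knockout array.

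Cat read 1664, 1712, 1788 and 1953 in knockout cells and 692, 762, 1023 and 1079 with PGE2, without overlap (-1.02 ± 0.17, limma adjusted p = 0.00093). In wild-type cells it had read 1056, 1327, 1330.4 and 1549. Nfe2l2 read 637, 643, 756 and 1016 without and 294, 357, 369.7 and 434 with PGE2, 2.08-fold lower (-1.06 ± 0.24, limma adjusted p = 0.0083). In wild-type cells it spread from 365 to 861. NRF2 message was lower with PGE2 on day 3, while on day 1 it had been lower in cells without COX2. Sepn1 read 1652, 1786, 1819 and 2097 and 1099, 1163, 1178 and 1488 (-0.58 ± 0.15, limma adjusted p = 0.017), a call lost without PGE2 array 24r.

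Prdx5 rose most. It read 1282, 2240.4, 2694 and 2880.1 in knockout cells and 5071, 5158, 5340.1 and 8049.7 with PGE2, 2.67-fold higher (1.41 ± 0.28, limma adjusted p = 0.0027). Wild-type arrays, at 2288, 3308, 4392 and 4738, overlapped those of knockout cells and lay below those with PGE2. Mt1 read 10883, 14151, 16574 and 16977 and 18159, 31771, 33094 and 38463 (1.02 ± 0.27, limma adjusted p = 0.017), a call lost without PGE2 array 20 or 24r, and the lowest array with PGE2 was just above the highest without.

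Hmox1 read 353, 559, 584 and 617 in knockout cells and 899, 906, 908 and 998 with PGE2, 1.79-fold higher (0.84 ± 0.14, limma adjusted p = 0.00081). It was also above wild-type cells, at 476, 507, 569.6 and 622 (0.78 ± 0.14, limma adjusted p = 0.0090). Gstm2 read 1514, 1610.0, 1611 and 1761 and 2419.7, 2421, 3159.5 and 3354 (0.79 ± 0.15, limma adjusted p = 0.0025), and Txn2 read 477, 501, 559 and 589 and 744, 765, 797 and 862 (0.58 ± 0.16, limma adjusted p = 0.022), a call lost without PGE2 array 20 or knockout array 7 or 8 (adjusted p up to 0.10).

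**Figure D4:**
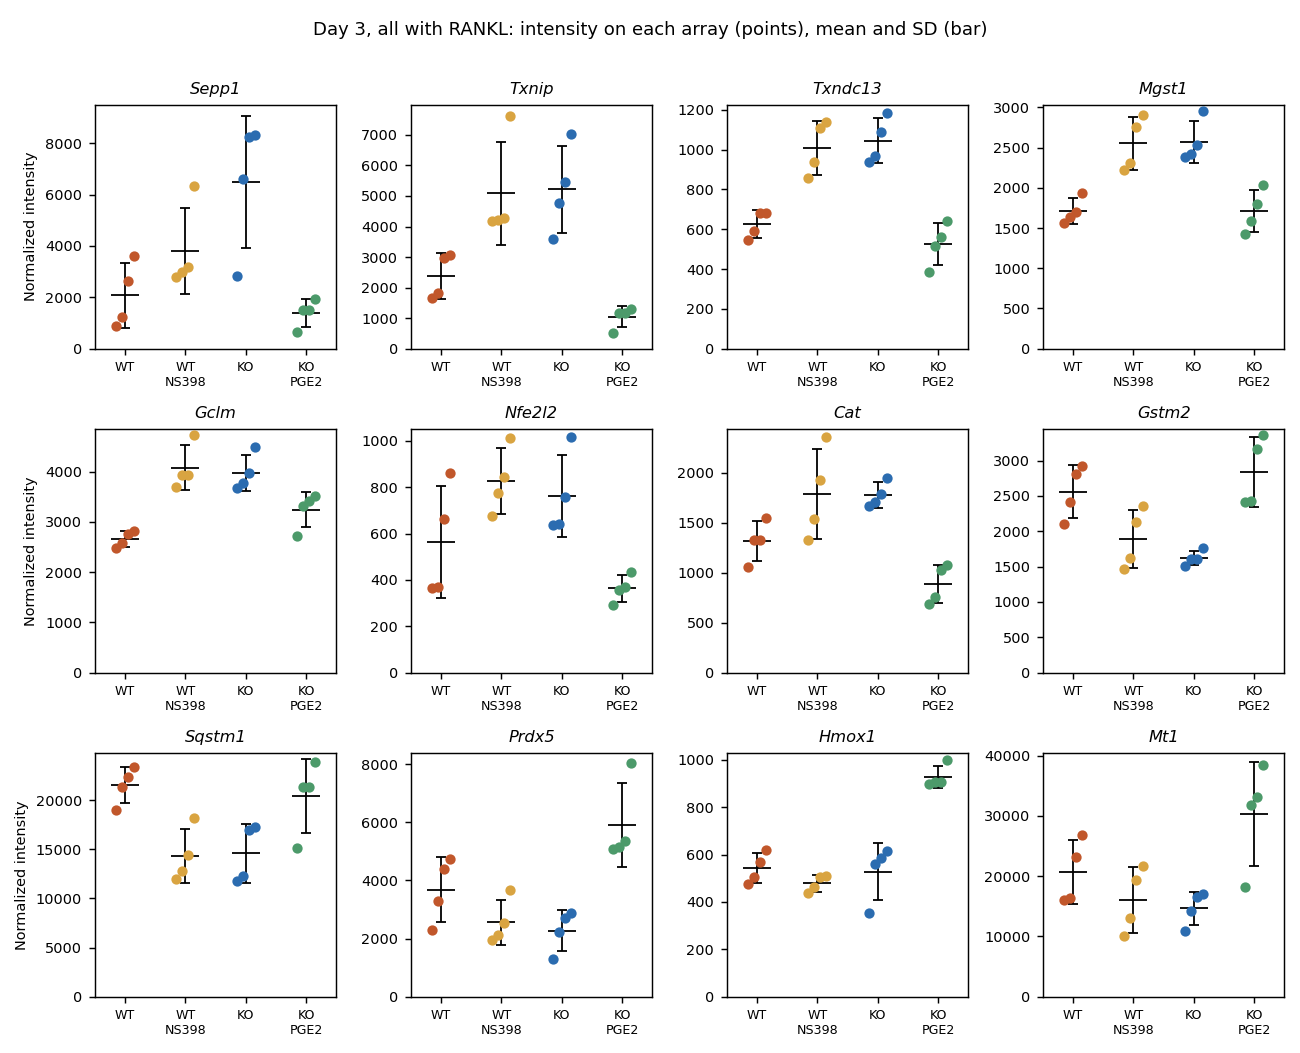
Normalized intensity (vertical axis, linear and starting at 0) of 12 genes on day 3 arrays (points), with the mean and SD of each group of 4, for wild-type cells, wild-type cells with NS398, knockout cells and knockout cells with PGE2, all given RANKL. Txnip, Sepp1 and Txndc13 were lowest with PGE2 by group mean, and Prdx5, Hmox1 and Mt1 were highest there.

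The ratio of 2 probes of 1 message, which can fall as RNA degrades, moved with PGE2. The log2 difference of 2 probes of Actb, for the beta-actin message, ran from -4.85 to -2.52 on the arrays with PGE2, from -2.16 to -0.10 in knockout cells, from -1.23 to -0.36 in wild-type cells and from -3.89 to -0.82 with NS398. With that difference as a term in the model, a setting chosen after seeing the data, PGE2 gave 1 higher and 5 lower gene instead of 5 and 8, and NS398 gave 3 and 0 instead of 6 and 1. The gene still higher with PGE2 was Hmox1, and Txnip, Cat, Txndc13 and Mgst1 were among those still lower, while Sepp1, Nfe2l2, Prdx5, Mt1, Gstm2, Txn2 and Sepn1 no longer passed (adjusted p from 0.060 to 0.58). The size of the difference with the term was -2.17 for Sepp1, -1.17 for Nfe2l2, 1.28 for Prdx5, 0.71 for Gstm2 and 0.66 for Txn2, near the values without it, and it was smaller for Mt1 (0.56) and Sepn1 (-0.17). Every array with PGE2 had a lower value than every knockout array without it, so the part of this ratio and that of PGE2 cannot be told apart.

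Few of these genes were called between knockout cells with PGE2 and wild-type cells with RANKL. Of 51 genes, 1 was higher and 1 lower, against 1.79% and 1.32% of the other named genes, and 14 had an unadjusted p under 0.05. The higher gene was Hmox1 and the lower was Gss, at 259, 293, 307 and 327 against 370.3, 436, 460.4 and 465 (-0.55 ± 0.09, limma adjusted p = 0.0039). Txnip had the largest difference of the 51, -1.22 ± 0.30, limma adjusted p = 0.066, which did not pass. The Hmox1 call was lost with the Actb term (adjusted p = 0.11), though the difference was then 0.91, and the Gss call was lost with that term, on its second probe, and in a fit of these 2 groups alone (adjusted p up to 0.17).

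The remaining genes were not called in any of the 3 main comparisons of day 3 on their brightest probe. They include Sod1, with 3099 ± 1264 in wild-type, 1832 ± 294 in knockout and 3401 ± 929 in PGE2-treated knockout cells (SD, n = 4 each), where the PGE2 difference was 0.86 ± 0.31, limma adjusted p = 0.078. Gpx4, Cybb, Ncf4, Nqo1, Keap1 and Mt2 differed with PGE2 by 0.65 ± 0.27, 0.04 ± 0.22, 0.16 ± 0.10, -0.20 ± 0.09, 0.36 ± 0.17 and 0.29 ± 0.13. Only 24 of the 51 genes had a probe in a day 3 table of the authors, so for the others no detection p-value was at hand for that day. Slc7a11, beside them, was at 5032 in wild-type and 1983 in knockout cells (-1.36 ± 0.14, limma adjusted p = 9.4e-06) and at 5901 with PGE2 (1.58 ± 0.14, limma adjusted p = 1.3e-06). Idh1 was at 1436 and 3151 (1.13 ± 0.21) and at 995 with PGE2 (-1.67 ± 0.21).

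For 14 genes with more than 1 named probe, no comparison had 1 probe called higher and another called lower. In the RANKL comparison the probes of all 14 had the same sign, and in the knockout comparison of day 1 the signs differed for 2. In the 3 main comparisons of day 3, 5 genes were called by a probe with a lower mean over all arrays and not by the probe used. These were Txnl4 (-1.09 for the knockout and 1.21 for PGE2), Keap1 with NS398 (0.54), Gstm2 with NS398 (-0.53), Gstp1 with PGE2 (0.97) and Gss with PGE2 (-0.64).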

How the data were processed

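RNA of 26 samples was read on Illumina bead arrays, 10 for day 1 and 16 for day 3. The authors deposited normalized intensities on a linear scale for 25697 probes, and the submitters' processing notes name GenomeStudio. Each experiment was normalized separately. The authors' deposited comparison tables hold group means, detection p-values and a difference score, per the file headers, and were used for probe names (7244 probes, 5838 genes) and for detection. For each gene the probe with the highest mean was used.

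Log2 intensities were fitted in limma 3.58.1 (R 4.3.3), one model per experiment, over probes above the 40th percentile of an array in at least as many arrays as the smallest group. P-values were Benjamini-Hochberg adjusted over all these probes (17211 on day 1, 18961 on day 3) and called at 0.05. Errors beside log2 differences are standard errors. The code was tested on simulated data. The genes given array by array were the 6 largest called changes in each direction per comparison with a fixed set of central genes. Members, lists and tests were chosen with earlier results of these data known. Alternatives were another normalization, no filter, an offset of 50, array weights, other probes, only the groups compared, extra terms and each array left out. Of the symbols, 44 were current and 7 were matched as synonyms. Array number limits the precision. Values of 1 gene are not reported here, though counts include it.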

Additional observations from a re-analysis of the deposited data

Results flagged for a closer look

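In groups of 4 arrays, 1 array stood far from the other 3 in 16 of 255 cases (6.27%), where chance gives about 1 in 20. The gap is given as a share of the group's range.

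With PGE2, the highest array stood apart for Gsto1 (gap 0.875, 3963 against 3139.7 to 3232), Gstt1 (0.919), Hmox1 (0.906, 998 against 899 to 908), Ncf4 (0.861) and Prdx5 (0.888, 8049.7 against 5071 to 5340.1). The lowest stood apart for Gstm1 (0.867) and Txnip (0.873, 528 against 1161 to 1302). In knockout cells of day 3 the highest array stood apart for Prdx2 (0.919) and Prdx4 (0.855, 3389.7 against 1989 to 2149), and the lowest for Sepx1 (0.837). With NS398 the highest array stood apart for Txnip (0.957, 7630.5 against 4184 to 4295) and Sepp1 (0.843, 6317 against 2790.5 to 3173), and the lowest for Prdx2 (0.875) and Prdx4 (0.947). In wild-type cells of day 3 it was the lowest array of Gstm6 (0.847), and in M-CSF alone the highest of Prdx4 (0.887).

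In 4 genes every knockout array lay on opposite sides of the wild-type arrays on the 2 days. The log2 differences on day 3 and day 1 were 0.58 and -0.42 for Gclm, 0.59 and -0.17 for Gsta3, 0.59 and -0.63 for Mgst1, and 0.36 and -0.37 for Sepn1. The difference between days was not tested.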

How the results depend on the processing

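No paired analysis was possible because the groups compared within an experiment share no replicate numbers. Calls of single genes held under every alternative for 41 of 46 genes with RANKL, 28 of 41 in the day 1 knockout, 16 of 27 for knockout cells with RANKL against M-CSF alone, 3 of 10 in the day 3 knockout, 3 of 7 with NS398, 6 of 13 with PGE2 and 0 of 2 for PGE2-treated knockout against wild-type cells. In 2 genes the probe with the lower mean over all arrays turned the sign, Gss in the day 3 knockout (0.016) and Keap1 in the day 1 knockout (-0.042). In the day 3 knockout group itself that probe of Gss was the brighter one, with a mean of 387 against 303. With only the groups compared, or with array weights, 5 genes were lower in the day 3 knockout instead of 3 and 9 were higher with PGE2 instead of 5. A term for the suffix r of sample titles, whose meaning is not given, gave 8 higher with PGE2. The suffix is on arrays 21r, 23r and 24r with PGE2, 12r of knockout cells and 16r with NS398, and on none of wild-type cells. Its part and that of PGE2 can therefore not be fully told apart. The Actb term gave 3 higher and 0 lower with NS398, 1 higher and 5 lower with PGE2, and 0 higher and 0 lower for PGE2-treated knockout against wild-type cells, where the lower gene was also lost (0) with only those groups and on the dimmer probe. Cyclic loess and array weights each gave 1 gene lower in knockout than in NS398-treated cells instead of 0. Leaving out 1 array gave 28 to 30 higher and 15 to 16 lower with RANKL, 11 to 13 and 23 to 29 in the day 1 knockout, 9 to 15 and 11 to 13 for knockout with RANKL against M-CSF alone, 3 to 7 and 1 to 3 in the day 3 knockout, 4 to 9 and 0 to 1 with NS398, 4 to 8 and 7 to 10 with PGE2, 1 to 1 and 1 to 2 for PGE2-treated knockout against wild-type cells, and 0 to 0 and 0 to 1 for knockout against NS398. The cause of these moves was not tested. Signal near background limits Gstt1 in M-CSF alone.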

Other observations

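Of 8 named genes of iron and heme handling beside Hmox1, 2 were higher and 5 lower with RANKL on day 1, where 33.6% and 42.0% of other named genes were. In the day 1 knockout 4 were higher and 2 lower, against 40.7% and 28.8% of other named genes. On day 3, 2 were higher in the knockout and none lower, against 8.7% and 7.54%. With PGE2 none were higher and 3 lower, against 15.1% and 16.8%. The day 1 shares stand beside the lists below as well. Of 8 named genes of metal handling beside the metallothioneins, 3 rose and 4 fell with RANKL, and 4 were higher and 3 lower in the knockout. Of 12 named genes of aldehyde and xenobiotic metabolism, 3 rose and 6 fell with RANKL, and 7 were higher and 4 lower in the knockout. Of 10 named regulators and partners of NRF2, 5 rose and 2 fell with RANKL, and 3 were higher and 4 lower in the knockout. With PGE2 on day 3, 3 of them were higher and none lower, against 15.1% and 16.8% of other named genes, while Nfe2l2 itself was lower.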
